A study of Mus musculus with 10 samples.

Results

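The FAT and Dachsous genes encode the giant cadherins of the mouse genome: Fat1, Fat2, Fat3, Fat4, Dchs1 and Dchs2. The 6 genes were taken by name from a table of 28871 Ensembl genes and were chosen by the Fat3 counts, in which a single vehicle sample (vehicle 7) had been seen to stand far from the rest. Of the 6, 5 had a row, and all 5 passed the filter on low counts that left 19093 genes for testing. Dchs2 had no row in the table and was not analysed here.

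Total RNA had been sequenced from whole hippocampus of wild type male C57BL/6J mice aged 2 months. In the 5 Visudyne samples (numbers 3, 6, 9, 12 and 15), the mice had received Visudyne, a formulation of the photosensitizer verteporfin, through the cisterna magna, followed by red light of 689 nm over the closed skull. The 5 vehicle samples (numbers 1, 4, 7, 10 and 13) came from mice injected with vehicle by the same route and given the same light. The procedure damages lymphatic vessels of the meninges, was given again after 2 weeks, and was followed by collection 2 weeks later. The labels do not say whether each sample is a single animal, so p-values measure the spread between these samples.

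Giant cadherins are single-pass membrane proteins with long chains of extracellular cadherin repeats. Fat4 on the surface of a cell binds Dchs1 on its neighbour, and the pair orients cells in a tissue, a property called planar cell polarity, and feeds into the Hippo growth pathway. In the developing mouse brain, Fat4 and Dchs1 act in neural progenitors. Fat1 regulates actin at cell contacts, Fat2 is best known from cerebellar granule cells, and Fat3 shapes the dendrites of retinal amacrine cells.

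Total counts per sample ranged from 51165271 to 68895223. The summed level of 14 markers of hippocampal principal neurons, in CPM (estimated counts scaled to a common library total), was 1943 to 2126 CPM in Visudyne and 1979 to 2238 CPM in vehicle samples, and all 14 markers had a row. Over all genes, edgeR called 4 genes higher with Visudyne (Col12a1, Slc26a2, Col6a2 and Col1a1), which is 0.021% of those tested, and 0 lower, which is 0%. The higher calls fell to 0 without Visudyne 3, Visudyne 6 or vehicle 7, and to 1 without Visudyne 9, 12 or 15 or vehicle 10 or 13. Without adjustment, 218 genes were higher and 107 lower with an edgeR p below 0.05, together 1.7%. Evenly spread p-values would put a share of 0.05 of the genes there, so 1.7% is not an excess. DESeq2 called 18 higher and 0 lower.

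Hippocampal levels of the giant cadherins fell into 2 kinds. Fat4 and Dchs1 were expressed in every sample, within a 1.30-fold and a 1.22-fold range. Fat1, Fat2 and Fat3 were low, and Fat1 and Fat3 ranged widely between samples of the same group. Fat1, Fat2, Fat4 and Dchs1 did not pass the test for a difference between Visudyne and vehicle, which 0.021% of all tested genes passed. Fat3, by which the genes were chosen, is described without a test. No member separated the groups completely. Among all tested genes, 0.319% had every Visudyne sample above every vehicle sample and 0.115% had every one below.

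**Figure D1:**
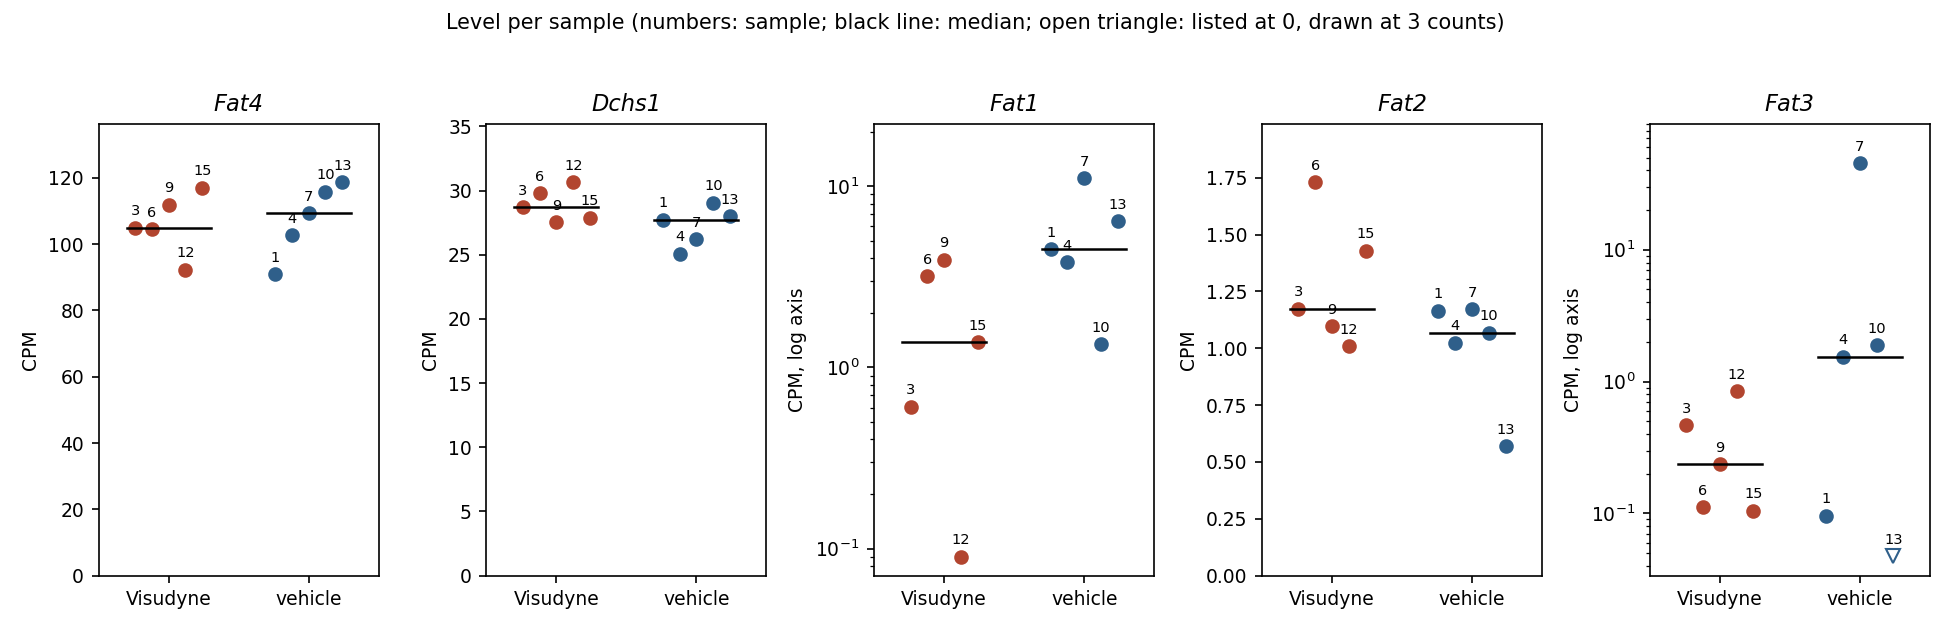
CPM of the 5 giant cadherin genes in each Visudyne (red, left) and vehicle (blue, right) sample, with the sample number beside each point and the group median as a black line. Fat1 and Fat3 are on log axes. Fat4 lies between 90.9 and 118.6 CPM and Dchs1 between 25.1 and 30.6 CPM, while Fat3 lies at 45.3 CPM in vehicle 7 and at or below 1.88 CPM in all other samples.

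Fat4 (ENSMUSG00000046743, chromosome 3, 38886940 to 39011985, plus strand, GRCm38, the assembly also named mm10) was the most abundant member. It measured 104.9, 104.5, 111.9, 92.2 and 117.0 CPM in Visudyne samples 3, 6, 9, 12 and 15. In vehicle samples 1, 4, 7, 10 and 13 it measured 90.9, 102.8, 109.3, 115.8 and 118.6 CPM. The groups overlapped over nearly their whole range, with the lowest sample of each group at 92.2 CPM for Visudyne and 90.9 CPM for vehicle. The log2 fold change was -0.02 (SE 0.08, edgeR adjusted p = 0.9999), and it turned to 0.033 without Visudyne 12, 0.01 without vehicle 10 and 0.03 without vehicle 13. Fat4 held 73.9 to 79.2% of the members' counts in Visudyne samples. Its share was 73.1 to 77.6% in 4 vehicle samples and 56.6% in vehicle 7, where Fat3 took 23.5%.

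Dchs1 (ENSMUSG00000036862, chromosome 7, 105752990 to 105787654, minus strand), the ligand of Fat4, measured 28.7, 29.8, 27.5, 30.6 and 27.9 CPM in Visudyne samples 3, 6, 9, 12 and 15. It measured 27.7, 25.1, 26.2, 29.0 and 28.0 CPM in vehicle samples 1, 4, 7, 10 and 13. Vehicle 4 and vehicle 7 were lower than all Visudyne samples, and the other 3 vehicle samples lay among them. The log2 fold change was 0.09 (SE 0.05, edgeR adjusted p = 0.9999). The ligand thus varied less between samples than its receptor. The within-group coefficient of variation (CV), pooled over both groups, was 5.15% for Dchs1 and 9.61% for Fat4. Genes of similar abundance were those within 0.5 on the log2 CPM scale, 2565 around Dchs1 and 1310 around Fat4. Their median CV was 7.06% around Dchs1 and 6.79% around Fat4. A smaller CV was found in 22.1% of the genes around Dchs1 and in 82.9% of those around Fat4.

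**Figure D2:**
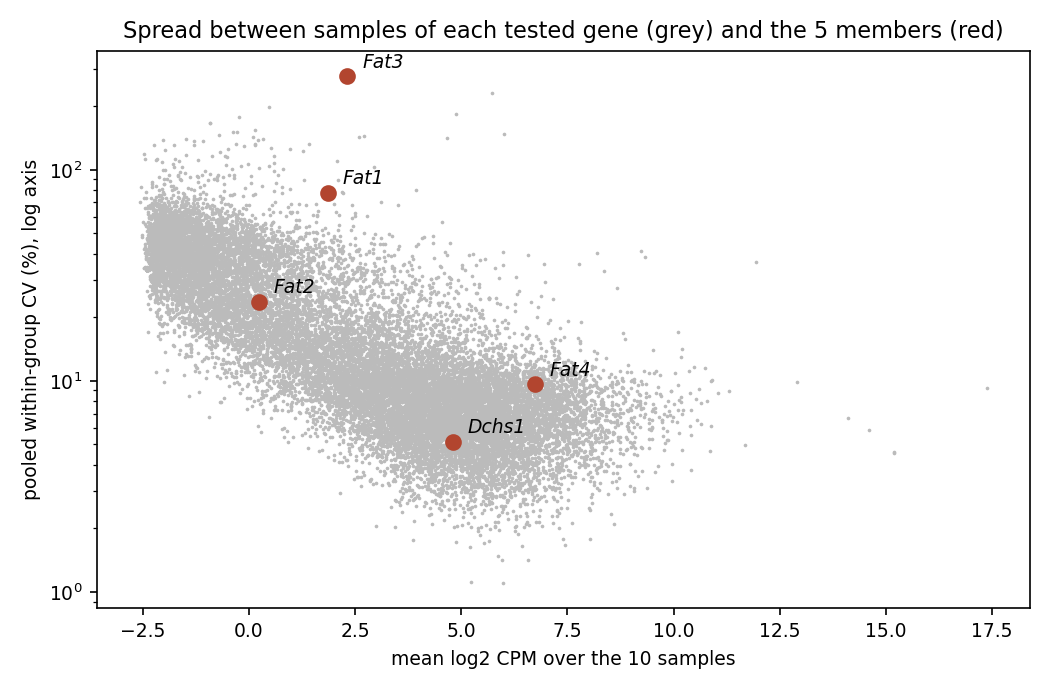
Pooled within-group CV in percent (log axis) against mean log2 CPM for each of 19093 tested genes (grey), with the 5 giant cadherin genes in red. Fat4, Dchs1 and Fat2 lie within the cloud of genes of like abundance, while Fat1 at 78.0% and Fat3 at 278% lie above it, the value of Fat3 through vehicle 7.

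The start of Fat4 is covered on the opposite strand by the antisense gene C230034O21Rik (chromosome 3, 38874570 to 38888259), which shares 1320 bases of genome with it and was looked at after the values were seen. The sequence around the start, from RefSeq (GRCm38.p6), is shown because both genes cover the bases in capitals, which run from the annotated start of Fat4 onward; it lies at chr3:38886690-38886989 on the plus strand.
Fat4: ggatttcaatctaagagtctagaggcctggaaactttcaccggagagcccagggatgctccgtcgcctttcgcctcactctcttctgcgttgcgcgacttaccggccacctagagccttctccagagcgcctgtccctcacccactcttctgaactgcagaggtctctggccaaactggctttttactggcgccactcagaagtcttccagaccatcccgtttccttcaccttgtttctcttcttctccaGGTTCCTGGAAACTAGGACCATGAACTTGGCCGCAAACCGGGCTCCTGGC

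The antisense gene counted 335, 403, 379, 282 and 404 in Visudyne samples 3, 6, 9, 12 and 15. It counted 323, 293, 283, 336 and 439 in vehicle samples 1, 4, 7, 10 and 13. These counts were a near-constant share of the Fat4 count, 5.38 to 6.02% in Visudyne and 5.14 to 5.86% in vehicle samples. No other pair of genes was compared, so whether such a share is particular to this pair was not tested. Its log2 fold change was -0.01 (SE 0.11, edgeR adjusted p = 0.9999). The transcripts of both genes shared 1151 runs of 31 bases on opposite strands. The library kit keeps the strand, but whether the counting used it is not given in the sources used here, so reads of Fat4 and of its antisense gene may not be fully separated.

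**Figure D3:**
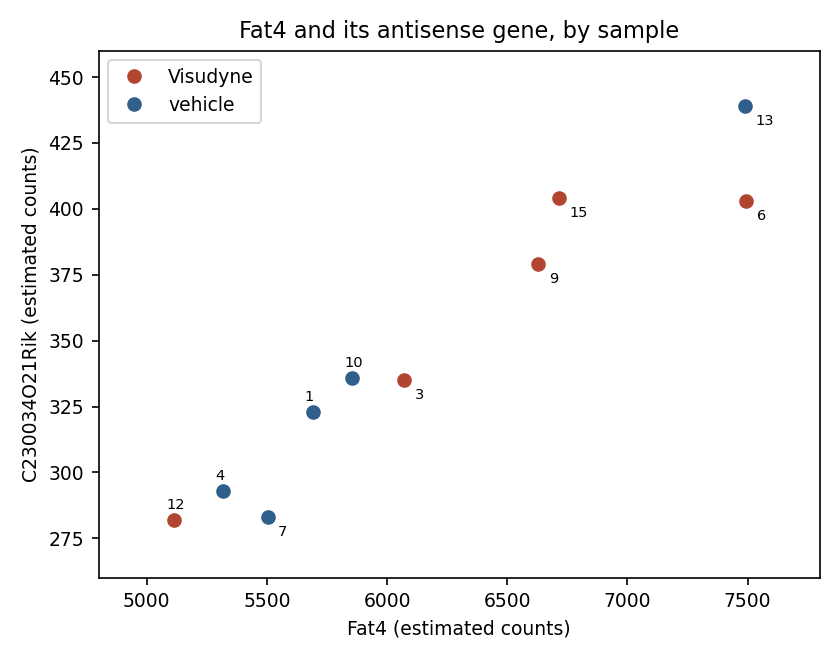
Estimated counts of the antisense gene C230034O21Rik against those of Fat4 in each Visudyne (red) and vehicle (blue) sample, with the sample number beside each point; neither axis starts at 0. Samples with more Fat4 counts tended to have more antisense counts, which ran from 282 in Visudyne 12 to 439 in vehicle 13. The counts are not scaled for library total, so both also rise with sequencing depth.

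Fat1 (ENSMUSG00000070047, chromosome 8, 44935447 to 45052257, plus strand), which controls actin at cell contacts, measured 0.605, 3.18, 3.93, 0.0901 and 1.38 CPM in Visudyne samples 3, 6, 9, 12 and 15. In vehicle samples 1, 4, 7, 10 and 13 it measured 4.47, 3.81, 11.1, 1.34 and 6.38 CPM. Visudyne 12 stood lowest with 5 counts and vehicle 7 highest with 558, and the groups overlapped between 1.34 and 3.93 CPM. The group means were 1.84 ± 1.66 CPM in Visudyne and 5.42 ± 3.64 CPM in vehicle samples (SD, n = 5 each). The log2 fold change was -1.55 (SE 0.69) with an unadjusted p of 0.0436 and an edgeR adjusted p of 0.9999, and it was -1.12 without vehicle 7.

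The span of Fat1 over the 10 samples was 123-fold between the highest and the lowest. Of 16147 genes with a mean of at least 0.5 CPM, 73 ranged at least as widely, counting genes listed at 0 in a sample, which is 0.452%. The median gene ranged 1.33-fold. Among 1534 genes of similar abundance, 6 had a larger within-group CV than Fat1, whose CV of 78.0% stood against a median of 12.9%. Gm2366, an antisense gene inside Fat1, counted 7 to 19 in Visudyne and 7 to 14 in vehicle samples and showed no such range.

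Fat2 (ENSMUSG00000055333, chromosome 11, 55250609 to 55336564, minus strand), a cadherin of cerebellar granule cells, measured 1.17, 1.73, 1.10, 1.01 and 1.43 CPM in Visudyne samples 3, 6, 9, 12 and 15. It measured 1.17, 1.02, 1.17, 1.07 and 0.570 CPM in vehicle samples 1, 4, 7, 10 and 13. Visudyne 6 and Visudyne 15 were the highest samples and vehicle 13 the lowest, with the others close to 1 CPM. The log2 fold change was 0.37 (SE 0.22, edgeR adjusted p = 0.9999). Counts were 56 to 124 in Visudyne and 36 to 73 in vehicle samples, and the CV of 23.7% matched the median of 23.8% for 1575 genes of similar abundance. The summed level of 12 cerebellar markers was 217 to 291 CPM in Visudyne and 221 to 249.7 CPM in vehicle samples, and its highest sample, Visudyne 12, had the lowest Fat2 level of its group. Calb1, also a marker of hippocampal neurons, and Etv1 made up most of this sum, and Zic1 stood at 49.2 CPM in Visudyne 12 and at most 17.5 CPM elsewhere. The cerebellar markers Gabra6, Barhl1 and Pcp2 were the lowest of the list, at no more than 0.0966, 0.190 and 0.471 CPM in any sample. The other markers reached higher levels. En2 ranged from 0.309 to 0.605 CPM, Cbln3 from 0.735 to 1.47 CPM, near the level of Fat2, and Cbln1 from 2.57 to 7.42 CPM. The part of cerebellar tissue in the Fat2 values was not tested.

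Fat3 (ENSMUSG00000074505, chromosome 9, 15910189 to 16501285, minus strand), a cadherin of neuronal dendrites, measured 0.466, 0.112, 0.236, 0.847 and 0.105 CPM in Visudyne samples 3, 6, 9, 12 and 15. In vehicle samples 1, 4, 7, 10 and 13 it measured 0.0958, 1.55, 45.3, 1.88 and 0 CPM. Vehicle 7 held 2282 of its counts, while Visudyne samples held 6 to 47 and the other vehicle samples 0 to 95. In vehicle 13, a count of 0 with a scaled library total of 63137200 allows a level of up to 0.0475 CPM (3 counts, counting error only). The vehicle sample far above the rest is what drew attention to the gene, so these levels are given as a description.

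Its fitted log2 fold change of -4.81 rested on that sample and was -1.31 without it (SE 1.01, n = 5 and 4). No p is given for the fit without vehicle 7, since that sample was left out for its Fat3 value. In limma voom, which averages log values, it was -1.01 with all samples. DESeq2 gave no p for Fat3, as it does for genes with an extreme count. Without vehicle 7, the vehicle mean was 0.880 ± 0.971 CPM (SD, n = 4), against 0.353 ± 0.313 CPM in Visudyne samples (SD, n = 5). The within-group CV of Fat3, 278%, restates the vehicle 7 value by which the genes were chosen; it was 88.5% among Visudyne samples and 110% among the other 4 vehicle samples, where counts were low.

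The members are related proteins, but their coding sequences share only short exact stretches. The longest run of bases shared by their coding sequences in the GENCODE M21 transcripts was 29, the longest of any of the 15 pairs of members, where the others shared 16 to 21. It is shown in capitals with 20 bases on either side, from chr8:45017959-45018027 on the plus strand for Fat1 and chr9:16003862-16003930 on the minus strand for Fat3 (GRCm38).
Fat1: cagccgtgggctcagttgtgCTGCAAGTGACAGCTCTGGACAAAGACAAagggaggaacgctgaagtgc
Fat3: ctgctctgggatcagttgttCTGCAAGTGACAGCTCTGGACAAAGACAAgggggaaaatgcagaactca

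No run of 31 bases was shared between any members, and Fat1, Fat2, Fat4 and Dchs1 shared none with another gene on the same strand. In Fat3, 27 of 21469 runs of 31 bases were also found in transcripts of other genes. All lay in a CA repeat of a Fat3 transcript that retains an intron, at chr9:15937432-15937524 on the minus strand (GRCm38). It is shown because it is the stretch through which Fat3 shares sequence with 1438 other genes, with the shared bases in capitals.
Fat3: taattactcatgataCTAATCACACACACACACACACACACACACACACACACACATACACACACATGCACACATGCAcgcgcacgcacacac

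The deposited values are per gene, so which transcript or stretch gave the Fat3 counts of vehicle 7 was not tested. Gm48726, a second gene identifier on the same strand inside Fat3, had no row in the table.

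Vehicle 7 stood apart in few genes. Of 16147 genes with a mean of at least 0.5 CPM, 4 were at least 4 times higher there than in any other sample, against 0 or 1 gene in each of the other 9 samples. Fat3, at 24.1 times the next sample, is among the 4 by the choice of genes, and the other 3 were not part of that choice. The noncoding gene Gm26822 measured 405 CPM in vehicle 7, against 5.10 to 25.8 CPM elsewhere, and the annotated microRNA gene Mir6236 measured 30.4 CPM, against 2.57 to 4.27 CPM. Ttr, which encodes the thyroid hormone carrier transthyretin and marks the choroid plexus, measured 179 CPM, against 4.48 to 27.2 CPM.

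The summed level of 10 choroid plexus markers, Ttr included, was 30.2 to 60.5 CPM in Visudyne samples, 228 CPM in vehicle 7 and 32.8 to 48.7 CPM in the other vehicle samples, and Ttr carried most of the vehicle 7 sum. Without Ttr, left out after the values were seen, the sum of the other 9 was 24.8 to 37.2 CPM in Visudyne samples, 48.8 CPM in vehicle 7 and 28.2 to 32.7 CPM in the other vehicle samples, which puts vehicle 7 at 1.31 times the next sample. Of these 9 markers, 7 were highest in vehicle 7. The coagulation factor gene F5 measured 5.10 CPM there and at most 1.64 CPM elsewhere, and the frizzled-related gene Mfrp 2.48 CPM and at most 1.41 CPM. By times above the next sample, F5 ranked 6 and Mfrp 10 in vehicle 7. Ranks 5 and 7 were Rpl14-ps1 (8.06 CPM, at most 2.55 CPM elsewhere) and AA474408 (59.6 and 22.9 CPM). Ranks 8 and 9 were Gm10171 (2.32 and 1.07 CPM) and Srrm2 (33.2 and 17.7 CPM). None of these genes is in the choroid plexus list. The part of these transcripts in the Fat3 value was not tested. Visudyne 12 and Visudyne 15, the next samples in the choroid plexus sum with 60.5 and 58.9 CPM, had Fat3 levels of 0.847 and 0.105 CPM. In the other 18 marker lists, vehicle 7 was at 0.189 to 0.944 times the highest other sample.

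**Figure D4:**
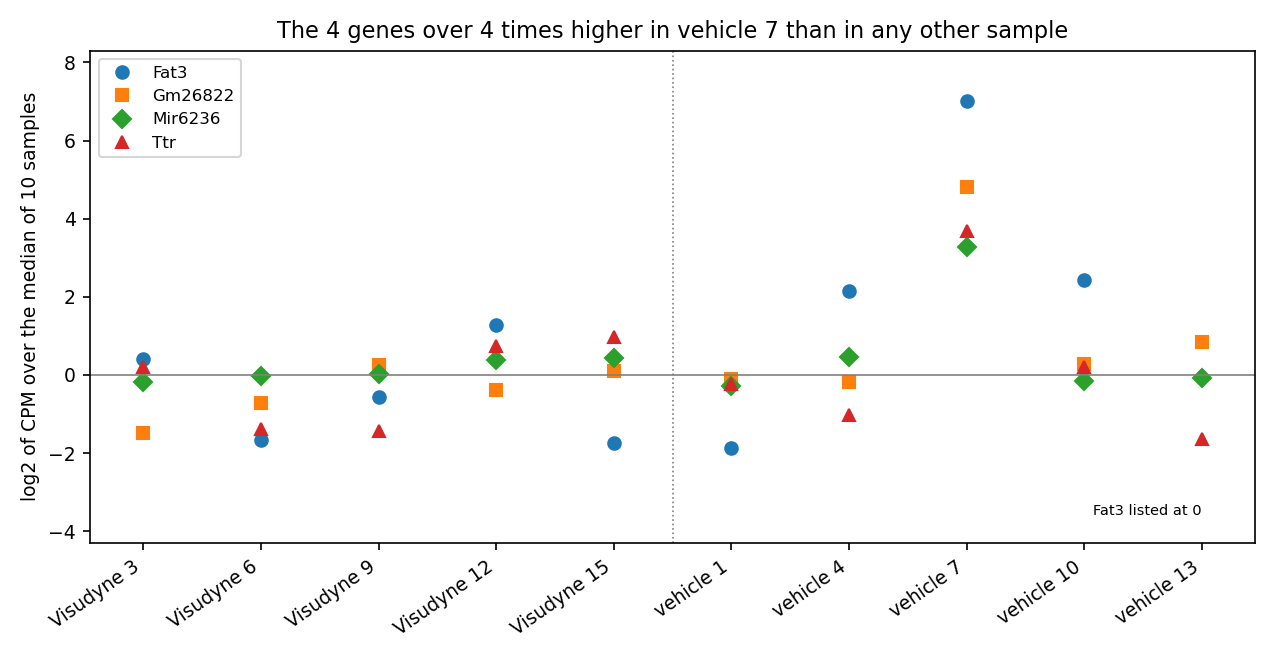
Level of Fat3, Gm26822, Mir6236 and Ttr in each sample, as log2 of CPM over the gene's own median of the 10 samples; Visudyne samples are left of the dotted line and vehicle samples right of it. All 4 genes peak in vehicle 7, where Fat3 measured 45.3 CPM, and Fat3 is listed at 0 in vehicle 13.

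In the opposite direction, 8 genes were listed at 0 in vehicle 7 alone. Ranked by the lowest of the other 9 samples, the first 3 were the pseudogene Pgam1-ps2 (at least 5.75 CPM elsewhere), the semaphorin gene Sema4c (0.715 to 2.26 CPM) and the pseudogene Gm5559 (0.495 to 1.49 CPM). The number of such genes was 0 to 5 in the other samples. The purinergic receptor gene P2ry14 was 7.78 times lower in vehicle 7 than in the next sample, the 1 gene past 4 times lower that was not at 0. The same count was 0 to 8 in the other samples, with 8 in Visudyne 12. Vehicle 7 did not stand out by this count, while its 8 genes listed at 0 alone were the most of any sample.

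Levels of different genes were set side by side after division by transcript length. Which transcripts were expressed is not known, so these levels depend on the length used. With the longest annotated transcript of each gene (16109 bases for Fat4, 10754 for Dchs1, 14814 for Fat1, 14528 for Fat2 and 18760 for Fat3), Fat4 stood highest, at 6.59 ± 0.580 CPM per kilobase in Visudyne and 6.67 ± 0.689 in vehicle samples (SD, n = 5 each). Dchs1 came next at 2.69 ± 0.121 CPM per kilobase in Visudyne and 2.53 ± 0.146 in vehicle samples. The lowest Fat4 sample (5.64) lay above the highest Dchs1 sample (2.85). The lowest Dchs1 sample (2.33) lay above every sample of Fat1 (at most 0.748) and Fat2 (at most 0.119), and above Fat3 in all samples except vehicle 7 (2.42).

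Below Dchs1 the order was not clear. Fat1 measured 0.124 ± 0.112 CPM per kilobase in Visudyne and 0.366 ± 0.246 in vehicle samples, and Fat2 0.0886 ± 0.0201 and 0.0688 ± 0.0171 in the same groups. The median of Fat3 was 0.0126 CPM per kilobase in Visudyne and 0.0824 in vehicle samples. The ranges of Fat1, Fat2 and Fat3 overlapped. The annotated coding sequences are long in all 6 genes, from 3291 codons in Dchs1 to 4981 in Fat4, with 3346 in Dchs2. Dchs2 (ENSMUSG00000102692, chromosome 3, 83127948 to 83357209, plus strand) is a further Dachsous protein, and its start is overlapped on the opposite strand by the noncoding gene Gm10710, which counted 65 to 105 in Visudyne and 54 to 88 in vehicle samples.

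No pair of members without Fat3 passed the test for varying together across samples. Pairs with Fat3 entered the adjustment over 10 pairs but are not read as a test, since the genes were chosen by the Fat3 values. Among 10 pairs of the 5 measured genes, the strongest relation was an inverse one between Fat1 and Dchs1 (Pearson r = -0.68, permutation p = 0.0221, adjusted p = 0.221; Spearman rho = -0.68, permutation p = 0.0344, adjusted p = 0.344; n = 10). It did not pass the adjustment, and r was -0.45 without Visudyne 3 and Visudyne 12. For the ligand and receptor Dchs1 and Fat4, r was -0.18 (permutation p = 0.627, adjusted p = 0.903; n = 10) and rho was -0.03 (permutation p = 0.940, adjusted p = 0.946), and r was 0.24 without vehicle 1 and Visudyne 12. These values include the difference between the groups, since they run over all 10 samples, and no correlation is given within groups of 5 samples.

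Each member had other genes with a like order of samples, given here by Spearman's rho of log2 CPM over the 10 samples among about 12359 other protein-coding genes, as a description. Fat4 was most like Slit1, which encodes an axon guidance ligand (rho 0.99), followed by Arhgap39, Taf3 and Urb1 (0.96 each) and Ago1 (0.95). Dchs1 was most like Ttc28 (0.93), then Rilpl2 and Slc1a6 (0.88 each) and Nudt16l1 and Kcna3 (0.87 each). Fat1 was most like Fam160a1 (0.95), the glutaminyl-tRNA synthetase gene Qars (0.92), Tedc2 (0.90) and Zfp287 and Parp2 (0.88 each). Fat2 was most like Stra6 and Tap1 (0.88 each) and Adam19, Gper1 and Lnx2 (0.84 each). Fat3 was most like Cntnap2, which encodes a neuronal adhesion protein (0.96), followed by Ggnbp2 (0.95), Atrx (0.94) and Csnk1g3 (0.93). Cntnap2 spanned 134 to 154 CPM over the samples, so the likeness lies in the ranks and not in the size of the range. The number of genes with a rho of 0.8 or more was 207 for Fat4, 133 for Fat3, 21 for Dchs1, 16 for Fat1 and 14 for Fat2. Among so many genes and only 10 samples, some reach such a rho without any relation. The number to be expected in that way was not worked out, so neither the counts nor the named genes show a relation.

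**Figure D5:**
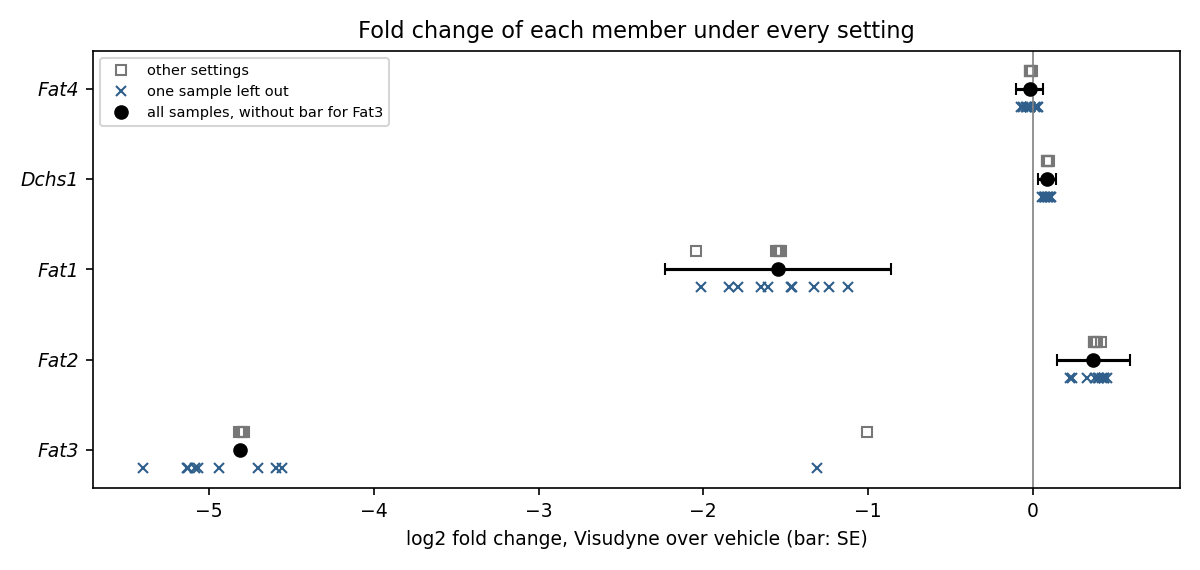
Log2 fold change of each giant cadherin gene, Visudyne over vehicle, with all samples (black; bars show the SE, none for Fat3), with each sample left out in turn (blue crosses) and under other normalizations, filters and tools (grey squares). Fat4 and Dchs1 stay close to 0, and the value of Fat3, -4.81 with all samples, is -1.31 without vehicle 7 and -1.01 with limma voom.

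Genes that modify, bind or act below the giant cadherins did not pass the test in either direction. Of 19 modifiers and binding partners of the FAT and Dachsous cadherins, all 19 were tested, 0 were called, and the median log2 fold change was 0.01, beside 0.00 for all tested genes. The 3 of smallest p were Ptprf (0.10, SE 0.06), a receptor phosphatase, Mpp5 (-0.13, SE 0.08), a polarity scaffold, and Atn1 (0.10, SE 0.09), an atrophin co-repressor. Ptprf averaged 55.7 ± 4.12 CPM in Visudyne and 51.9 ± 3.26 CPM in vehicle samples (SD, n = 5 each). Each had an edgeR adjusted p of 0.9999.

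Of 18 tested genes of the core planar cell polarity system, which acts beside the Fat4 and Dchs1 pair, 0 were called and 12 had positive fold changes (66.7%, beside 51.1% of all tested genes). The membrane protein gene Vangl1 measured 4.18, 3.97, 4.37, 4.96 and 4.39 CPM in Visudyne samples 3, 6, 9, 12 and 15. It measured 4.04, 3.81, 3.77, 3.93 and 3.72 CPM in vehicle samples 1, 4, 7, 10 and 13. Vehicle 1 lay above Visudyne 6, and the other vehicle samples lay below all Visudyne samples. The log2 fold change was 0.18 (SE 0.08, edgeR adjusted p = 0.9999). Next were Ror2, a Wnt receptor (0.37, SE 0.20), and Vangl2 (-0.08, SE 0.06).

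In the Hippo pathway, a kinase cascade restrains the growth regulator Yap1. Of 20 genes, which included Yap1, Wwtr1 and Tead1 to Tead4 beside the cascade, 0 were called, with a median log2 fold change of 0.02. Yap1 averaged 13.6 ± 0.298 CPM in Visudyne and 12.9 ± 0.539 CPM in vehicle samples (SD, n = 5 each; log2 fold change 0.08, SE 0.05, edgeR adjusted p = 0.9999). Sav1, a scaffold of the kinases (0.08, SE 0.06), and Tead1, the DNA-binding partner of Yap1 (0.13, SE 0.09), were next by p and did not pass.

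Other cadherins did not pass the test either. Of 21 tested genes of other large or unusual cadherins, 0 were called, and the median log2 fold change was 0.01. Pcdh18 (-0.17, SE 0.08), Pcdh20 (-0.14, SE 0.12) and the desmosomal gene Dsg2 (0.11, SE 0.10) had the smallest p. Of 19 tested classical cadherins 0 were called, with a median of 0.01, and the 3 of smallest p were Cdh1, the endothelial cadherin gene Cdh5 (0.21, SE 0.17) and Cdh22 (0.06, SE 0.05).

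Cdh1, which encodes E-cadherin of epithelia, measured 4.09, 2.47, 2.36, 2.49 and 1.76 CPM in Visudyne samples 3, 6, 9, 12 and 15. It measured 1.85, 1.85, 0.397, 0.771 and 0.634 CPM in vehicle samples 1, 4, 7, 10 and 13. Visudyne 15 lay below vehicle 1 and vehicle 4, and all other Visudyne samples lay above all vehicle samples. The log2 fold change was 1.25 (SE 0.39), with an unadjusted p of 0.00716 and an edgeR adjusted p of 0.9999. The summed level of 20 markers of meningeal and perivascular fibroblasts was 241 to 283 CPM in Visudyne and 139 to 250.3 CPM in vehicle samples, with all 20 markers in the table, and its part in the Cdh1 values was not tested. In whole tissue, a change in the number of cells of a type and a change in RNA per cell cannot be told apart.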

How the data were processed

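The authors deposited a single table of estimated counts per Ensembl gene for 10 hippocampus samples, made with Salmon on mm10, with FastQC for read quality, per the submitters' processing notes. For Salmon, the version, annotation and library type were not given in those sources. Per the labels, a stranded total RNA kit was used. The estimated counts are whole numbers as deposited, and no row has a total below 2.

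Symbols and coordinates came from GENCODE M21 (28564 identifiers matched, and 307 did not). Genes were tested with edgeR's quasi-likelihood method (edgeR 4.0.16, R 4.3.3) over 19093 genes, with its default filter, TMM normalization and Benjamini-Hochberg adjustment at 0.05. The method was also tested on simulated data, in which all genes had the same spread beyond counting noise and no sample stood apart. Genes that spread as Fat1 and Fat3 do were thus not covered. CPM used TMM-scaled totals, and log2 CPM a prior count of 2. Permutation p-values of correlations are two-sided with 100000 resamples.

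The members, gene lists and rules for named genes (all members, the 3 genes of smallest p per list, the 5 most alike genes and those apart in vehicle 7) were chosen with earlier results of these data known. The 45 pairs of libraries differed beyond sampling noise (9.63 to 67.7 chi-square units for each degree of freedom, where noise alone gives about 1). Alternatives were other normalizations and filters, DESeq2 1.42.0, limma voom (limma 3.58.1) and leaving out each sample. Intervals and floors cover counting error only. A gene among those most alike to Fat3 is not reported here.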

Additional observations from a re-analysis of the deposited data

Results flagged for a closer look

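In a group of 5 samples, a sample was singled out when its gap to the nearest other exceeded 0.71 of the group's range. This was applied to the 5 members and 19 marker sums in both groups, 48 sets in all, of which 6 were singled out. Chance alone singles out about 1 in 20 sets, and Fat3 in vehicle samples is not to be read against that rate, since the genes were chosen by it.

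Fat3 in vehicle 7 was at 45.3 CPM, with the next vehicle sample at 1.88 CPM. The choroid plexus sum in the same sample was 228 CPM, of which Ttr gave 179 CPM, with the next vehicle sample at 48.7 CPM. Fat2 in vehicle 13 was at 0.570 CPM, below the next vehicle sample at 1.02 CPM. The cerebellar marker sum was 291 CPM in Visudyne 12, where Zic1 stood at 49.2 CPM, with the next Visudyne sample at 232 CPM. The ependyma marker sum was 36.5 CPM in Visudyne 12, the sample of lowest Fat1, with the next Visudyne sample at 15.5 CPM. The blood marker sum was 30.1 CPM in Visudyne 6, the sample of highest Fat2, with the next Visudyne sample at 9.53 CPM.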

How the results depend on the processing

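Fat1, Fat2 and Dchs1 kept their direction and did not pass under all 16 alternatives: log2 fold changes were -2.05 to -1.12 for Fat1, 0.23 to 0.45 for Fat2 and 0.06 to 0.11 for Dchs1. With samples left out in turn, Fat4 ranged from -0.073 to 0.033 and reversed to 0.033 without Visudyne 12, 0.01 without vehicle 10 and 0.03 without vehicle 13. Fat3 ranged from -5.40 to -1.31, the last without vehicle 7, and was -1.01 with limma voom. A filter of 1 CPM in 5 samples removed Fat3. Over all genes, 2 were called higher with upper-quartile factors and 18 with DESeq2. With a sample left out, 0 to 4 were called higher, with 0 without Visudyne 3, Visudyne 6 or vehicle 7 and 1 without Visudyne 9, 12 or 15 or vehicle 10 or 13, and 0 to 1 lower, with 1 without vehicle 1. The cause of these differences was not tested. Fewer samples entered each fit with a sample left out, yet 4 genes stayed called higher without vehicle 1 or vehicle 4. Counts of a member summed with another identifier of its strand were not run, since no such identifier had a row. No paired analysis was possible because the groups share no sample number. Fat2 and Fat3 rest on low counts, down to 36 and 0 in single samples; Fat1 had 5 counts in Visudyne 12 and 35 to 558 elsewhere, and the part of depth was not tested.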
